A study of Mus musculus with 4 samples.

Results

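The sonic hedgehog pathway was described in epidermal keratinocytes of newborn mice through 9 genes taken by symbol, which are Shh, Ptch1, Smo, Boc, Gas1, Hhip, Gli1, Gli2 and Gli3, out of 45803 gene symbols in the deposited table. All 9 were present, and the values of the transcripts of each symbol were summed. The comparison at postnatal day 0 was between 2 genotypes. The conditional knockout animals (cKO) carried Cre recombinase under the keratin 14 promoter and 2 floxed Mettl14 alleles (K14Cre,Mettl14F/F). The control animals carried the same Cre and a floxed allele beside an intact one (K14Cre,Mettl14F/+), so they are heterozygous in Cre-expressing cells rather than wild type. The keratin 14 promoter is active in basal keratinocytes and in the epithelium of hair follicles, and cells of the dermis are not its target. METTL14, the product of the deleted gene, is the partner of METTL3 in placing N6-methyladenosine (m6A) on RNA. There were 2 cKO and 2 control RNA sequencing libraries, numbered 1 and 2 in each genotype. The labels give no strain or sex and do not say whether a library came from a single animal or whether equal numbers mark a shared litter or day, and each p-value here reflects library-to-library spread alone, which may be technical.

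Hedgehog signalling begins when the secreted ligand SHH binds the receptor PTCH1, which otherwise holds the membrane protein SMO inactive. Released SMO acts at the primary cilium and changes the processing of the GLI transcription factors, of which GLI2 is the main activator, GLI3 largely a repressor, and GLI1 an activator whose gene is itself a target. Ptch1, Gli1 and Hhip are transcribed in response to the signal and are the usual readouts of pathway activity. In skin the ligand is made by the epithelium of hair buds and the hair matrix, and the pathway drives the downgrowth of hair follicles.

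Values are FPKM, that is reads or fragments scaled to transcript length and library size, so levels can be compared between genes. From the smallest values a depth of 16883918 (cKO 1), 25693590 (cKO 2), 17361091 (control 1) and 23413237 (control 2) reads or fragments could be worked out, so the libraries numbered 2 were the deeper ones in both genotypes. Libraries resembled each other by number more than by genotype: across 13817 genes the correlation of log2 values was 0.977 between cKO 1 and control 1 and 0.976 between cKO 2 and control 2, against 0.956 between the cKO libraries and 0.966 between the control libraries, and genes are not independent replicates. The targeted gene, Mettl14, measured 5.89 and 3.79 FPKM in cKO 1 and 2, against 7.00 and 6.40 in control 1 and 2, a log2 difference that did not pass the test (-0.42 ± 0.26, SE, limma adjusted p = 0.959); the labels do not say which part of the gene is removed, so this is an incomplete check of the deletion. The keratinocyte markers were led by Krt10 and Krt14 and summed to 17900 and 12230 FPKM in cKO 1 and 2, against 21698 and 12266 in control 1 and 2, with 9 of 10 tested and Krt1 listed at 0 in every library. Markers of other cell types were lower. Fibroblast markers, led by Dcn and Col3a1, summed to 87.7 and 94.9 FPKM in cKO 1 and 2, against 119 and 116 in control 1 and 2. Dermal condensate markers, led by Prdm1 and Bmp4, summed to 21.5 and 28.1 in cKO and to 25.3 and 22.8 in control. Of these 8 markers 5 were tested and 2 stayed under 1 FPKM in every library. Prdm1 alone measured 7.72 and 9.89 in cKO and 9.16 and 10.4 in control, and which cells its RNA came from was not tested. Leukocyte markers (Ptprc, Cd68) summed to 25.2 and 20.0 in cKO and to 44.95 and 35.8 in control. Of these markers 4 of 4 were lower in cKO within both numbers (37.6% of all genes tested). Schwann cell markers (led by Sox10) came to 12.1 and 7.95 in cKO and 15.4 and 14.1 in control, with 2 of 4 tested. Most of that sum was Sox10 alone, at 7.40 and 6.85 in cKO and 9.50 and 9.23 in control. Which cells the Sox10 RNA came from was not tested, so the sum cannot be read as Schwann cells. Melanocyte markers (Dct, Pmel) came to 378 and 397 in cKO and 486 and 419 in control, and Merkel cell markers (Krt8, Krt18) to 10.2 and 11.3 in cKO and 11.5 and 13.3 in control. The sums were below both control libraries in both cKO libraries for fibroblast, leukocyte, Schwann cell, melanocyte, Merkel cell, and muscle and pericyte markers. Single markers did not all follow the sums. The log2 difference was positive for 4 of 8 tested fibroblast markers and 1 of 5 tested Merkel cell markers, beside 45.5% of all genes tested. It was positive for 0 of the tested leukocyte (4), Schwann cell (2), melanocyte (5), and muscle and pericyte (2) markers. Lowest were muscle and pericyte markers (Acta2, Acta1) between 1.42 and 4.27, and endothelial markers (Pecam1, Kdr) between 0.57 and 1.62. In these bulk libraries fewer cells of a type and less RNA per cell cannot be told apart, and the part of these cells in the pathway values was not tested.

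The first question was how strongly each pathway gene was expressed in these cells. The co-receptor gene Gas1, the receptor gene Ptch1 and the transducer gene Smo stood at the top, at means over the 4 libraries of 41.7, 38.0 and 32.1 FPKM, above at least 81.4% of the 13817 genes tested. Gli1 followed at 10.7 FPKM, then Boc at 8.51, Gli2 at 6.55, Shh at 5.35 and Gli3 at 3.35. Hhip was lowest at 0.418 FPKM. The step between Smo and Gli1 and the step between Gli3 and Hhip separated the ranges of all 4 libraries, while every other pair of neighbours in this order overlapped in range. Within libraries the order was steadier: Gli1 exceeded Boc, Boc exceeded Gli2, and Shh exceeded Gli3 in 4 of 4 libraries, whereas Gas1 exceeded Ptch1, Ptch1 exceeded Smo, and Gli2 exceeded Shh in 3 of 4. The other hedgehog ligand genes were near absent, with Ihh between 0 and 0.19 FPKM and Dhh between 0 and 0.12, so Shh was the ligand transcript detected at more than 1 FPKM.

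**Figure D1:**
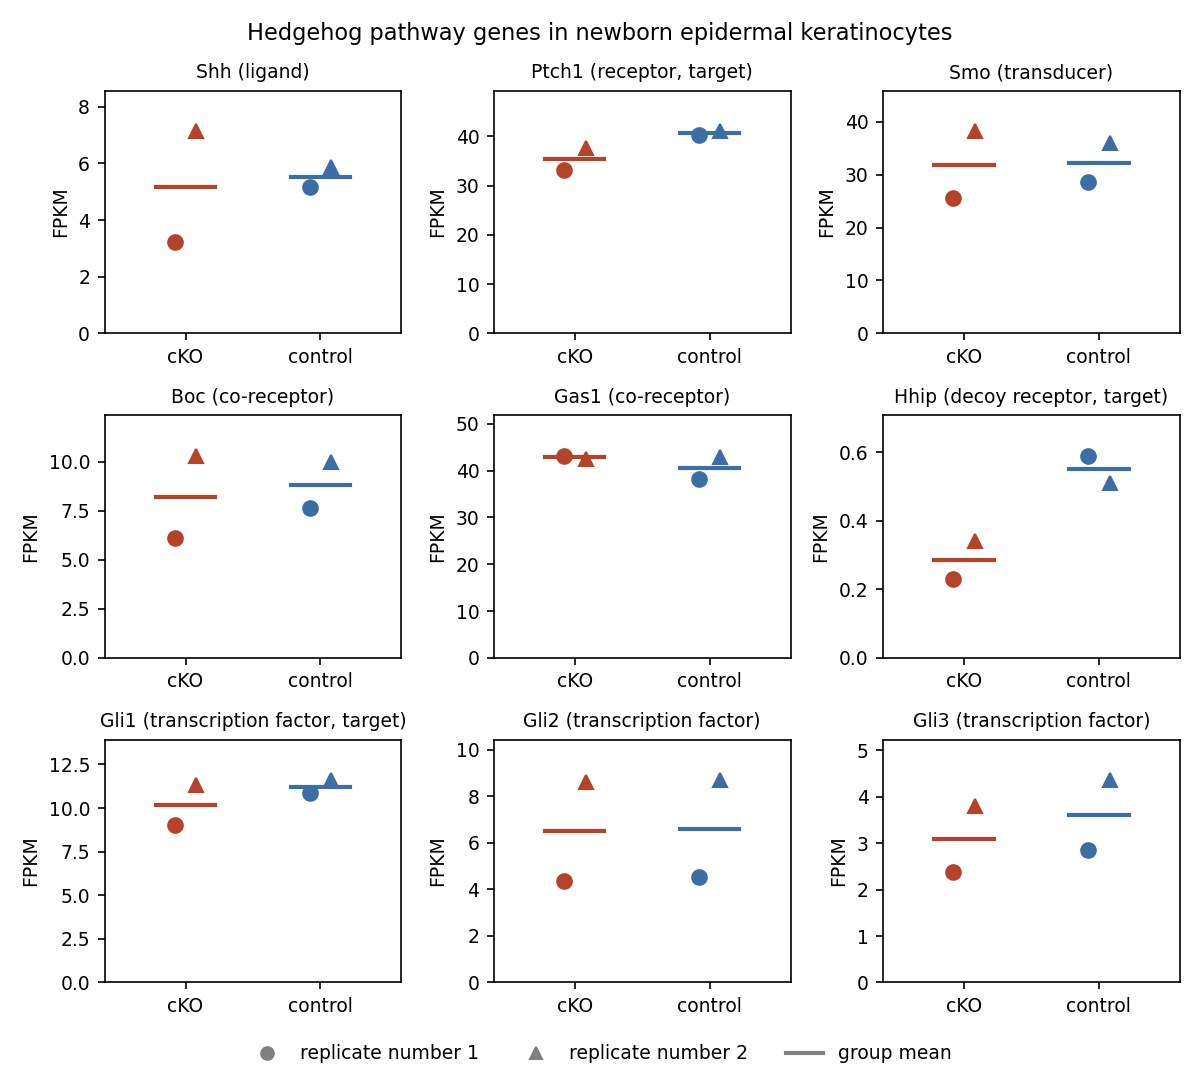
FPKM of the 9 hedgehog pathway genes in each library, with cKO on the left and control on the right of each panel; circles are libraries numbered 1, triangles libraries numbered 2, and bars the mean of 2 libraries. Only the cKO points of Ptch1 and Hhip lie wholly below the control points, and both triangles lie above both circles for Shh, Smo, Boc, Gli1, Gli2 and Gli3.

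The main comparison asked whether the pathway genes differed between cKO and control. None of them passed. Of the 9 genes, 8 reached 1 FPKM in 2 or more libraries and were tested with limma on log2(FPKM + 1), which compresses differences of weakly expressed genes; Hhip did not reach that level. Of these 8, 0 had an adjusted p under 0.05 (0% of the 13817 genes tested were called, with 686, or 4.96%, at an unadjusted p under 0.05, and 0 of the 8 among those). limma-voom on reads recovered from the FPKM also called 0 genes, and a fit with replicate number as a block, which the labels do not justify as a pairing, called 6.51% of all genes and 0 of the 8. The log2 differences of the 8 genes ran from -0.20 to 0.08 with a median of -0.13, beside a median of -0.03 over all genes tested. The differences of 7 of the 8 genes were negative (54.5% of all genes tested were) and that of Gas1 was positive. Smo and Gli2 lay so close to 0 that median-ratio scaling of the libraries moved them to 0.003 and 0.004. The shared direction also depended on single libraries. With cKO 1, cKO 2, control 1 or control 2 left out, 1, 7, 8 and 3 of the 8 differences were negative. Both cKO libraries lay below both control libraries for 1 of the 8, Ptch1 (16.6% of all genes tested did so), and both lay above for 0 (16.2%). Lower values in cKO within both replicate numbers were found for 4 of the 8, Ptch1, Gli1, Gli2 and Gli3 (37.6% of all genes tested), and higher values within both for 0 (31.8%). Within number 1 alone 7 of the 8 were lower in cKO (53.2% of all genes tested), and within number 2 alone 5 were (52.4%).

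**Figure D2:**
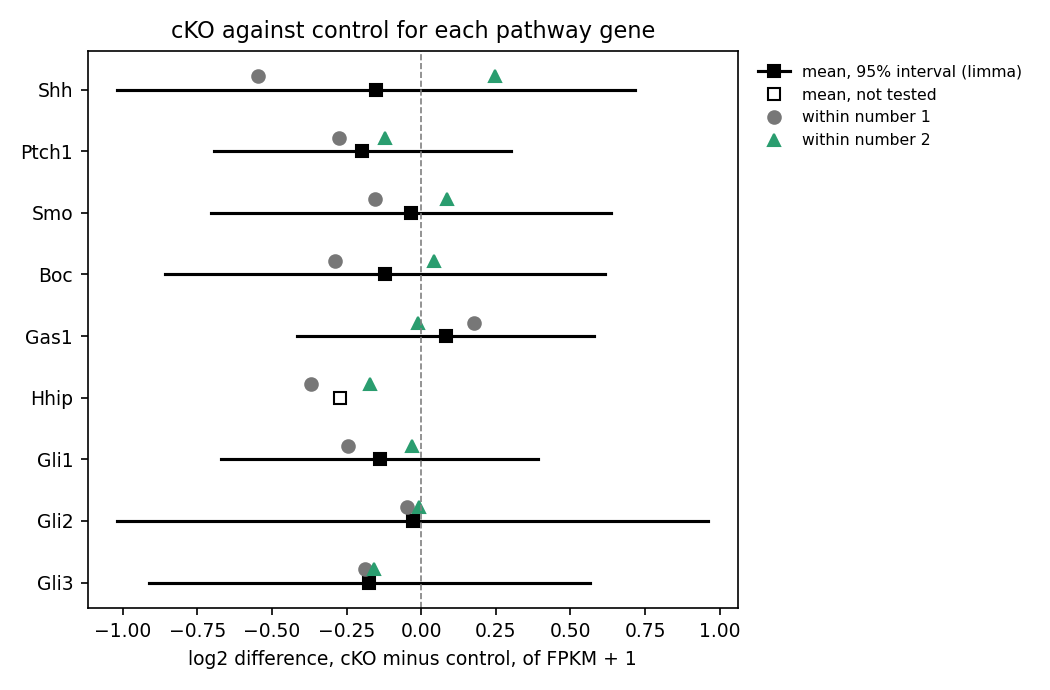
Log2 difference of FPKM + 1, cKO minus control, for the 9 genes. Black squares and lines are the means and 95% intervals of limma's fit, the open square is Hhip, which was not tested, and circles and triangles are the differences within replicate numbers 1 and 2. Every interval spans 0, and those of Shh and Gli2 are the widest.

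Shh, which encodes the ligand, is carried on GRCm38 chromosome 5 (28456815 to 28467256, minus strand) and has a single listed transcript of 3 exons. It measured 3.22 and 7.15 FPKM in cKO 1 and 2, against 5.17 and 5.87 in control 1 and 2. The cKO libraries were thus the lowest and the highest of the 4, and the control values lay between them. The log2 difference was -0.15 ± 0.35 (SE; limma adjusted p = 0.972), with -0.55 within number 1 and 0.25 within number 2, and its 95% interval ran from -1.02 to 0.72, or 0.494 to 1.64 times on the FPKM + 1 scale. Its direction rested on 1 library, since leaving out cKO replicate 1 gave a difference of 0.32, and leaving out cKO replicate 2 one of -0.63. Recovered reads came to 155 (exact Poisson 95% interval 131.6 to 181.4) and 523 (479.1 to 569.8) in cKO 1 and 2, against 256 (225.6 to 289.4) and 391 (353.2 to 431.7) in control 1 and 2, and these intervals cover counting error only. Exons of 2 RNA genes on the opposite strand overlap those of Shh; the larger, Gm26894, measured 0.79 and 1.43 FPKM in cKO, against 0.67 and 0.84 in control. Whether strand was kept is not given in the sources used here, so some of their reads may be counted with Shh or the reverse.

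Genes that make or release the ligand gave 0 calls among the 5 tested of 8 beside Shh. Within both numbers 2 were lower in cKO (37.6% of all genes tested) and 1 higher (31.8%). Disp1, which encodes the transporter that releases lipid-modified ligand, measured 3.11 and 4.55 FPKM in cKO 1 and 2, against 4.25 and 5.70 in control 1 and 2 (log2 difference -0.31 ± 0.27). Scube2, a secreted partner of that release, measured 1.54 and 1.85 in cKO, against 1.04 and 1.43 in control (0.27 ± 0.25). Scube3 had the same spread of cKO values as Shh, with the lowest and the highest library both cKO, at 2.31 and 6.48, against 2.96 and 4.15 in control (0.14 ± 0.42). None passed limma's test (adjusted p of at least 0.959).

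Ptch1, the receptor gene and a direct target, is carried on chromosome 13 (63508328 to 63573598, minus strand). It measured 33.1 and 37.7 FPKM in cKO 1 and 2, against 40.2 and 41.1 in control 1 and 2. The genotypes did not overlap. Its log2 difference was -0.20 ± 0.20 (limma adjusted p = 0.959), the largest in size among the 8 genes tested, with -0.27 within number 1 and -0.12 within number 2. The 95% interval ran from -0.70 to 0.30, or 0.618 to 1.23 times. Leaving out each library in turn kept it negative, between -0.29 and -0.11. Ptch1 was thus lower in cKO in 2 of 2 comparisons by number, by an amount within the error of this design.

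Most of the Ptch1 signal was assigned to a transcript with an internal start. Ptch1-202 has 24 exons and accounted for 27.4 and 31.0 FPKM in cKO 1 and 2, against 32.1 and 34.2 in control 1 and 2, which is 82.7% and 82.3% of the gene in cKO and 79.7% and 83.3% in control. Ptch1-201 was listed at 3.05 and 5.07 in cKO, against 5.64 and 5.14 in control. The first base of Ptch1-202 lies 1200 bases downstream of that of Ptch1-201, and its coding sequence of 3891 bases is the same as the end of the 4302 coding bases of Ptch1-201, which has 411 coding bases of its own before that part. The share of Ptch1-202 overlapped between genotypes. Ptch1-204, annotated as subject to nonsense-mediated decay and chosen after its values were seen, was listed at 1.11 and 0.76 in cKO, against 2.21 and 1.34 in control. How the authors divided reads among transcripts is not given in the sources used here, so these shares depend on that step. The first 60 coding bases of both transcripts are shown because they differ from the start, with capitals for bases that only Ptch1-201 codes; Ptch1-201 lies at chr13:63565461-63565520 and Ptch1-202 at chr13:63548067-63548126, both GRCm38 and minus strand, from GENCODE M21.
Ptch1-201: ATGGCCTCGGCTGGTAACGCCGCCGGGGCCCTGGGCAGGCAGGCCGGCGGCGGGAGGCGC
Ptch1-202: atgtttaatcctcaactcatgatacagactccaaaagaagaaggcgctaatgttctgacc

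**Figure D3:**
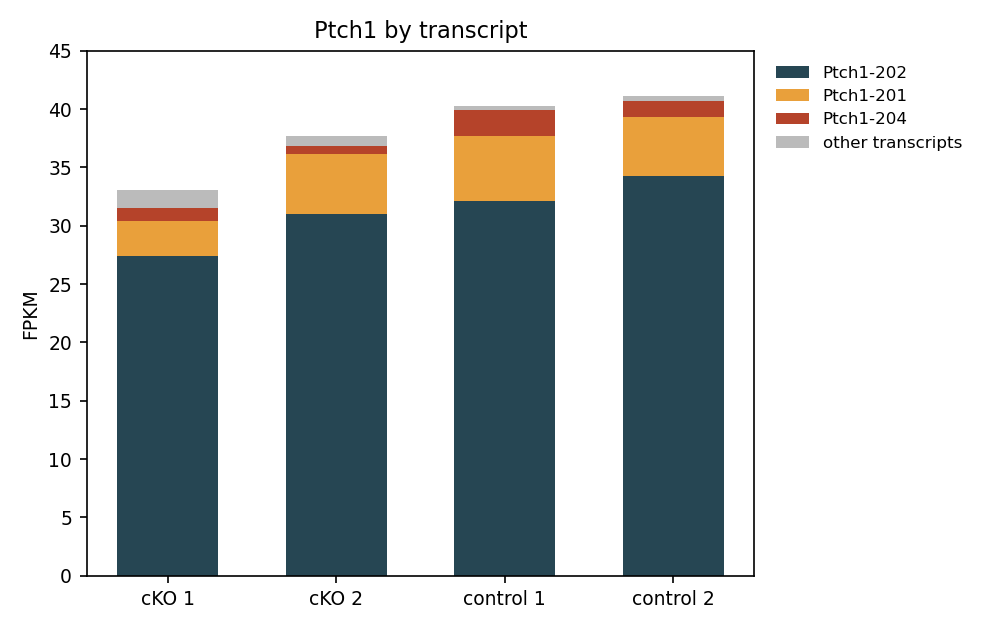
FPKM of the Ptch1 transcripts in each library, stacked, with the cKO libraries on the left. Ptch1-202 makes up between 79.7% and 83.3% of each bar, and both cKO bars are shorter than both control bars.

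The transducer and the co-receptors showed no difference beyond the spread. Smo (chromosome 6, 29735503 to 29761365, plus strand) measured 25.6 and 38.3 FPKM in cKO 1 and 2, against 28.6 and 36.0 in control 1 and 2, so the control values lay inside the cKO range (log2 difference -0.03 ± 0.27, limma adjusted p = 0.991). Boc (chromosome 16, 44485049 to 44558897, minus strand) encodes a co-receptor that presents ligand to PTCH1. It measured 6.09 and 10.3 in cKO, against 7.66 and 9.98 in control, again with the control values inside the cKO range (-0.12 ± 0.30, adjusted p = 0.972 with limma). Gas1 (chromosome 13, 60174405 to 60177365, minus strand), a gene of a single exon for a membrane-anchored co-receptor, measured 43.2 and 42.5 in cKO, against 38.1 and 42.9 in control (0.08 ± 0.20, adjusted p = 0.972 with limma). Directions for these genes were not stable: without cKO replicate 1 the difference of Smo was 0.25 and that of Boc 0.22, without control replicate 2 they were 0.13 and 0.05, and Gas1 came to -2.1e-04 without control replicate 1. The main transcript of Boc, with 87.5% to 88.8% of its FPKM, is not in GENCODE M21, so no reads were recovered for it.

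Hhip (chromosome 8, 79965851 to 80058006, minus strand) encodes a membrane decoy that binds the ligand, and is a target of the pathway. It was listed at 0.23 and 0.34 FPKM in cKO 1 and 2, against 0.59 and 0.51 in control 1 and 2. Both cKO values were below both control values. At this level recovered reads were 35 (exact Poisson 95% interval 24.38 to 48.68) and 79 (62.55 to 98.46) in cKO, against 93 (75.06 to 113.9) and 105 (85.88 to 127.1) in control. Divided by depth these intervals became 1.44 to 2.88 RPM and 2.43 to 3.83 RPM in cKO 1 and 2, against 4.32 to 6.56 RPM and 3.67 to 5.43 RPM in control 1 and 2, so cKO 2 lay below control 1 and overlapped control 2. These intervals, too, hold counting error only. When the minimum was lowered to 0.1 FPKM, Hhip had a log2 difference of -0.27 (limma adjusted p = 0.954), and it did not pass.

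Of 4 other reception genes, 3 were tested and 0 were called, and Cdon had the smallest p of them. Cdon, a co-receptor related to Boc, measured 4.37 and 4.59 FPKM in cKO 1 and 2, against 6.59 and 8.42 in control 1 and 2. The genotypes did not overlap, and the log2 difference was -0.63 ± 0.22, with -0.50 within number 1 and -0.75 within number 2. Its unadjusted p was 0.0332, and it did not pass after adjustment (limma adjusted p = 0.959).

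The GLI genes, which carry the signal to the nucleus, were also without a call. Gli1 (chromosome 10, 127329882 to 127341974, minus strand) measured 9.01 and 11.3 FPKM in cKO 1 and 2, against 10.9 and 11.6 in control 1 and 2. The cKO value of library 2 lay between the control values (log2 difference -0.14 ± 0.22, limma adjusted p = 0.959, 95% interval 0.628 to 1.31 times), with -0.25 within number 1 and -0.03 within number 2, and 0.01 without cKO replicate 1. Exons of Arhgap9, on the opposite strand, overlap those of Gli1; the level of Arhgap9 was 4.28 and 7.54 in cKO and 5.09 and 7.27 in control, and reads from the overlap cannot be assigned where strand is unknown. The Gli1 to Ptch1 ratio within libraries was 0.272 and 0.300 in cKO, against 0.270 and 0.282 in control. With 4 libraries such likeness to Ptch1 or Gli1 was common among the tested genes, as counted below.

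Gli2 (chromosome 1, 118834132 to 119053619, minus strand) measured 4.35 and 8.63 FPKM in cKO 1 and 2, against 4.53 and 8.69 in control 1 and 2. The values fell into pairs by replicate number, and within each number cKO and control differed by less than 4% (log2 difference -0.05 within number 1 and -0.01 within number 2). Pooled, its difference was -0.03 ± 0.40 (limma adjusted p = 0.995), and it was 0.40 without cKO replicate 1 and 0.38 without control replicate 2. Gli3 (chromosome 13, 15463235 to 15730026, plus strand) measured 2.38 and 3.80 in cKO, against 2.85 and 4.36 in control, lower in cKO within both numbers by similar amounts (-0.19 and -0.16; pooled -0.17 ± 0.30, adjusted p = 0.964 with limma). Without cKO replicate 1 its difference was 0.08 and without control replicate 2 it was 0.07. The ratio of Gli2 to Gli3, activator to repressor gene, was 1.83 and 2.27 in cKO, against 1.59 and 1.99 in control, with overlapping ranges.

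The difference between replicate numbers exceeded that between genotypes for most pathway genes. Both libraries numbered 2 lay above both numbered 1 for 6 of the 8 tested genes, which were Shh, Smo, Boc, Gli1, Gli2 and Gli3 (32.8% of all genes tested did so). In the fit with replicate number as a block, the number term was called for 3 of the 8, Gli2, Smo and Boc, beside 30.4% of all genes tested. Ptch1, Gas1 and the untested Hhip overlapped between numbers. Gli2 was 1.98 times as high in cKO 2 as in cKO 1 and 1.92 times as high in control 2 as in control 1. For Shh the corresponding ratios were 2.22 in cKO and 1.14 in control, for Gli3 1.597 and 1.53, for Boc 1.69 and 1.303, and for Smo 1.497 and 1.26. The median log2 difference, number 2 minus number 1, was 0.47 over the 8 genes and 0.08 over all genes tested. Genes of the hair bud and matrix were also higher: 14 of 16 tested were higher in both libraries numbered 2, with a median of 0.78. The keratinocyte marker sum went the other way, at 12230 and 12266 FPKM in cKO 2 and control 2, against 17900 and 21698 in cKO 1 and control 1. That sum followed Krt10, at 6217 and 5382 in cKO 2 and control 2, against 12142 and 15342 in cKO 1 and control 1. Krt14 was higher in number 2, at 2195 and 2550, against 1435 and 2176. As a group the markers had no common direction: of 9 tested, 3 were higher and 3 lower in both libraries numbered 2. Over all genes tested these shares were 32.8% and 24.6%. The part of hair matrix RNA, of keratinocyte RNA or of depth in the pathway values was not tested. The hair bud transcription factor gene Lhx2, chosen after its values were seen, measured 24.5 and 19.4 FPKM in cKO 2 and control 2, against 11.7 and 17.3 in cKO 1 and control 1, which is the order of libraries seen for Shh.

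**Figure D4:**
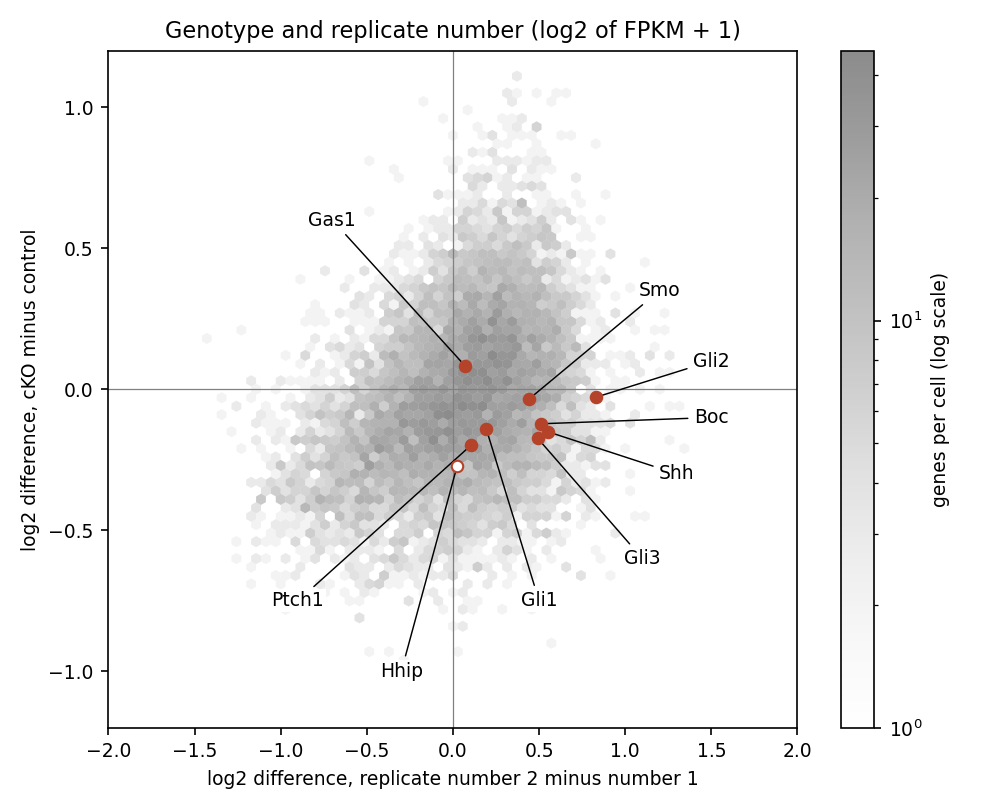
Log2 difference by genotype (vertical, cKO minus control) against log2 difference by replicate number (horizontal, number 2 minus number 1), both of FPKM + 1. Grey cells count the tested genes, of which 72 lie outside the axes, red points are the pathway genes and the open point is the untested Hhip. Gli2 lies at 0.83 by number and -0.03 by genotype, and only Gas1 lies above 0 by genotype.

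The wider machinery was compared by lists, with no set test. Of 24 signal transduction genes, 23 were tested and 0 were called, with a median log2 difference of -0.05. Within both numbers 10 were lower in cKO (37.6% of all genes tested) and 5 higher (31.8%). Prkacb, a catalytic subunit of protein kinase A, the kinase that starts GLI processing toward repressors, measured 15.00 and 14.3 FPKM in cKO 1 and 2, against 22.9 and 21.7 in control 1 and 2 (-0.58 ± 0.19, unadjusted p = 0.0255, limma adjusted p = 0.959). Arrb2, a beta-arrestin, measured 8.13 and 13.5 in cKO, against 14.3 and 16.2 in control (-0.50 ± 0.28). Ulk3, a kinase of GLI proteins, measured 8.33 and 8.59 in cKO, against 6.37 and 6.74 in control (0.32 ± 0.20). These 3 genes, named for their small p, did not overlap between genotypes. In the whole list both cKO libraries lay below both control libraries for 5 of 23 (16.6% of all genes tested). They lay above for 3 of 23 (16.2%).

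All 27 genes of the primary cilium list, the organelle in which SMO acts, were tested and 0 were called. Of these, 17 were lower in cKO within both numbers, beside 37.6% of all genes tested, and 4 were higher, beside 31.8%. The median log2 difference was -0.19. Cc2d2a, of the ciliary transition zone, measured 3.54 and 1.62 FPKM in cKO 1 and 2, against 5.56 and 4.49 in control 1 and 2 (-0.80 ± 0.33). Ift80, of the intraflagellar transport machinery, measured 1.26 and 1.86 in cKO, against 3.31 and 2.25 in control (-0.56 ± 0.28). B9d1, also of the transition zone, measured 5.29 and 8.50 in cKO, against 4.45 and 4.81 in control (0.46 ± 0.27). The adjusted p of each was at least 0.959 with limma.

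Among 16 further genes known as hedgehog targets in one tissue or another, 9 were tested and 0 were called. Within both numbers 2 were lower in cKO (37.6% of all genes tested) and 0 higher (31.8%). Their median log2 difference was -0.09. Bcl2, a survival gene, measured 5.25 and 3.59 FPKM in cKO 1 and 2, against 7.52 and 4.68 in control 1 and 2 (-0.38 ± 0.30). Sfrp1, a secreted Wnt inhibitor, measured 1.56 and 3.13 in cKO, against 2.55 and 4.03 in control (-0.38 ± 0.34). Cdk6, a kinase of the cell cycle, measured 12.8 and 13.7 in cKO, against 12.8 and 17.1 in control (-0.15 ± 0.22). The neural tube targets Nkx2-2, Nkx6-1 and Foxa2, also outside the rule for named genes, were listed at 0 in every library. Mycn and Ccnd1, cell cycle targets chosen after their values were seen, had the lowest and the highest value in cKO as Shh did: Mycn measured 5.98 and 14.3 in cKO, against 9.06 and 10.1 in control. Ccnd1 stood at 27.9 and 55.9 in cKO, with 38.5 and 45.9 in control.

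The hair bud and matrix list had 16 of 17 genes tested and 0 called, with a median log2 difference of -0.11. Within both numbers 6 were lower in cKO (37.6% of all genes tested) and 6 higher (31.8%). Sostdc1, a secreted inhibitor of Wnt and BMP signals made around the hair bud, measured 81.6 and 82.7 FPKM in cKO 1 and 2, against 64.2 and 64.3 in control 1 and 2 (0.35 ± 0.21). Cux1, a transcription factor of the hair matrix and inner root sheath, measured 19.3 and 33.6 in cKO, against 32.3 and 40.8 in control (-0.49 ± 0.31). Foxn1, the transcription factor mutated in nude mice, measured 7.90 and 7.23 in cKO, against 5.59 and 6.65 in control (0.27 ± 0.21). Sostdc1 and Foxn1 did not overlap between genotypes, which makes 2 of 16 tested above control (16.2% of all genes tested) and 0 below, and the adjusted p from limma was 0.959 for all 3 genes.

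**Figure D5:**
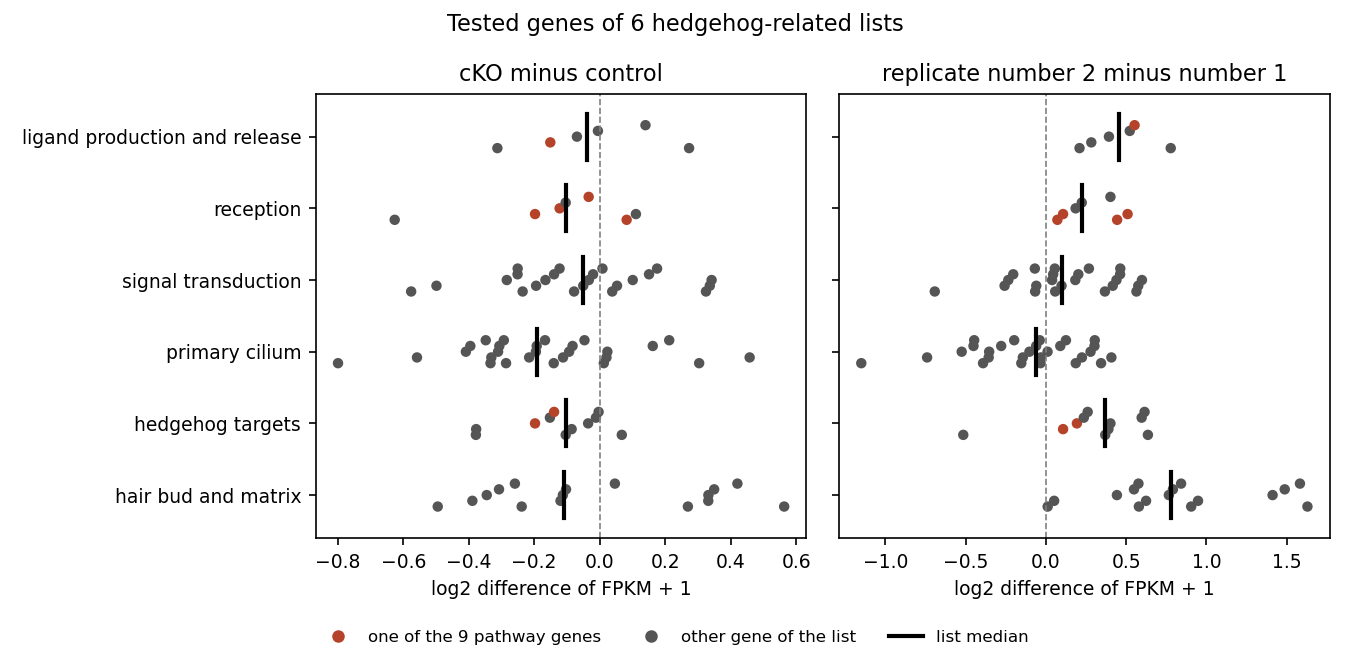
Log2 difference of FPKM + 1 for each tested gene of 6 hedgehog-related lists, cKO minus control on the left and replicate number 2 minus number 1 on the right. Red points are the 9 pathway genes where they belong to a list, black bars are list medians. By genotype the medians lie between -0.19 and -0.04, and by number the hair bud and matrix median is 0.78.

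The genes whose values over the 4 libraries were most like those of a pathway gene were sought by the root mean square difference of log2(FPKM + 1) centred on each gene's mean. For Shh these were Ackr3 (0.0062), Fut10 (0.0097) and P3h1 (0.0104). For Ptch1 they were H2afy (0.0062), Papl (0.0088) and Tnfrsf1b (0.0099), and for Gli1 they were Inppl1 (0.0058), Stx7 (0.0070) and Zdhhc1 (0.0144). With 4 libraries such likeness is common: 19 tested genes lay within 0.05 of Shh, 122 of Ptch1 and 127 of Gli1. Among the pathway genes themselves Ptch1 and Gli1 were closest (0.0540), followed by Smo and Boc (0.0597).

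METTL14 acts with METTL3, which methylates adenosine in a short sequence of which GGACT is a common form, so these letters were counted on the transcript strand of the main transcript of each gene. They are a description of sequence, and no methylation was measured. All 8 genes with a main transcript in GENCODE M21 held GGACT, as did 90.6% of 11841 main coding transcripts of tested genes. Ptch1 held 15 and Smo 8, which is 2.14 and 2.12 per kilobase, above 90.2% and 89.7% of those transcripts, whose median was 1.06 per kilobase. Gli3 held 13, Gli2 11 and Gli1 5. Shh held 1 and Hhip and Gas1 held 2 each, at 0.351, 0.220 and 0.675 per kilobase. The match nearest the end of the coding part is shown for the 7 genes that had one there, to let the surroundings be compared, with GGACT in capitals and up to 10 coding bases on either side (GRCm38). They lie at chr5:28458504-28458528 (minus strand) in Shh, chr13:63511594-63511618 (minus) in Ptch1, chr6:29760266-29760282 (plus) in Smo, chr13:60176436-60176460 (minus) in Gas1, chr10:127330213-127330237 (minus) in Gli1, chr1:118836032-118836056 (minus) in Gli2 and chr13:15726125-15726149 (plus) in Gli3.
Shh: agctggtgaaGGACTtacgtcccgg
Ptch1: gtgagaggagGGACTcaaaggtgga
Smo: atgcagactcGGACTtc
Gas1: ccgcgctggaGGACTgcgactgcgc
Gli1: acactcagctGGACTttgtggctat
Gli2: ctagcaccgtGGACTcccagctcct
Gli3: tgcctaccagGGACTcaggacaaca
The Smo match begins 7 bases before the end of the coding part, and that of Ptch1 begins 73 bases before it, while those of Shh and Gas1 both begin 661 bases before it. The genes with the most matches per kilobase, Ptch1 and Smo, had log2 differences of -0.20 and -0.03 between cKO and control. Gli2, Gli3, Gli1 and Gas1, in falling order of matches per kilobase, had -0.03, -0.17, -0.14 and 0.08. Shh and Hhip, with the fewest, had -0.15 and -0.27. That of Hhip is untested and compressed by the added 1 FPKM, so its size cannot be set beside the others. As cKO to control FPKM ratios within numbers 1 and 2, Ptch1 had 0.822 and 0.918 and Smo 0.895 and 1.06. Shh had 0.623 and 1.22, and Hhip 0.390 and 0.667. Whether the density of matches goes with the difference between genotypes was not tested.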

How the data were processed

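The authors deposited 1 table of 110295 transcripts with values to 2 decimals and no named unit. Per the submitters' processing notes, fastp, HISAT2 and HTSeq were used with build GRCm38; the sources used here give neither their roles nor the annotation. The deposited values were taken as FPKM because value times transcript length, summed over transcripts, came to between 1015550 and 1021998 in each library. Table columns headed WT hold the control libraries; genotype and number in each heading gave the library. In 162 rows a symbol had become a date and was looked up by transcript ID. FPKM were summed per symbol. The test, for genes reaching 1 FPKM in 2 or more libraries, used log2(FPKM + 1) and limma 3.58.1 (R 4.3.3), with a mean-variance trend, genotype as the only term and Benjamini-Hochberg adjustment over 13817 genes at 0.05. There were 2 residual degrees of freedom. The script was tested on simulated data. Reads were recovered as FPKM times length times implied depth; recovered reads of transcripts of 300 to 1000 bases were whole, within 0.2 reads, in 94.5% to 95.5% of cases. Annotation and sequences came from GENCODE M21, which held 98.04% of transcripts.

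The 9 genes and all lists were chosen with earlier results of these data known. Genes named beside the 9 are Mettl14, for each list the members past the threshold or, with none, the 3 of smallest p, the 3 genes most like Shh, Ptch1 and Gli1, and the 2 most abundant of each marker list; any others were chosen after their values were seen. Some genes that this rule names are not reported here. Alternatives were other scalings, pseudocount, filters, limma-voom, coding transcripts only, a replicate block and leaving out each library. Python 3.11.15, numpy 2.4.6, pandas 2.3.3, scipy 1.17.1 and matplotlib 3.10.9 were used.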

Additional observations from a re-analysis of the deposited data

How the results depend on the processing

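No pathway gene passed the threshold in any of the 12 alternatives that held it, with an adjusted p of at least 0.31 for each; Hhip was in 2 of them, the lower filter and no filter, and limma-voom had no value for Boc. With the replicate number as a block (replicate block), 900 genes were called, 626 higher and 274 lower in cKO, but 0 of the 8 pathway genes in the fit; the smallest adjusted p among them was 0.31, for Ptch1. In that fit 3 genes of the pathway lists were called, Prkacb (-0.58, adjusted p = 0.0324), Cc2d2a (-0.80, adjusted p = 0.0438) and Krt71 (0.56, adjusted p = 0.0263), and the term for replicate number was called for Gli2 (0.83, adjusted p = 0.0073), Smo (0.44, adjusted p = 0.0267) and Boc (0.51, adjusted p = 0.0376), as for 30.4% of all genes. Labels do not state this pairing; deviations of same-numbered libraries from their group means correlated at 0.722 over genes, with only 2 pairs. Median-ratio scaling turned Gli2 to 0.004 and Smo to 0.003. Leaving out 1 library leaves 1 in its group, assumed to vary like the other group, and mixes genotype with number: 9 to 71 genes were called, with 71 without cKO replicate 1, 9 without cKO replicate 2, 14 without control replicate 1 and 37 without control replicate 2. The log2 difference then ranged from -0.626 to 0.324 for Shh, -0.289 to 0.011 for Gli1, -0.452 to 0.396 for Gli2, -0.427 to 0.079 for Gli3, -0.315 to 0.248 for Smo, -0.46 to 0.215 for Boc, -2.1e-04 to 0.165 for Gas1 and -0.289 to -0.105 for Ptch1. The cause of these shifts was not tested. With 2 libraries a group the 95% intervals are wide.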
